A study of Mus musculus with 3 samples.

Results

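Among the cells of the cardiac precursor cell cultures (CPCC), 85 of 175 were pluripotent-like by the genes used here. They were defined by expression of 2 pluripotency genes and by upper limits on smooth muscle and macrophage genes: at least 100000 gene counts, at least 100 CPM of Pou5f1 and Tdgf1 together, under 2000 CPM of Acta2 and Tagln together, and under 100 CPM of C1qa, C1qb and C1qc together. CPM are the counts of a gene out of each 1000000 gene counts of the cell. They made up 48.6% of the CPCC cells, with an exact Clopper-Pearson 95% interval of 41.0% to 56.2%, which covers counting error only, as do all intervals below. The whole series held 622 cells. Of the other CPCC cells, 20 were above the limit of C1q, 54 were above that of Acta2 and Tagln but not of C1q, 10 were in no class and 6 were too shallow.

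All cultures derive from male F1 embryos of C57BL/6J mothers and CAST/EiJ fathers, a strain given as C57BL/6 x CAST/EiJ in the labels. The mouse embryonic stem cells (mESC), single cell-derived clones from blastocysts, were kept in serum medium with leukaemia inhibitory factor, the MEK inhibitor PD0325901 and the GSK3 inhibitor CHIR99021. For CPCC, embryoid bodies made from mESC were treated with ascorbic acid and dissociated, and the cells were passaged 3 times in serum medium with epidermal growth factor and Fgf2, without the inhibitors. The cardiac bodies, a later culture, serve here only for a count. The labels give 1 sample per culture, so no difference below has a replicate check and no p-value is given. CPCC cells were sequenced in 2 pools and mESC in 3. The title of the mESC sample says triplicate, but no label or column name ties a pool to a clone. The pools are thus shown separately and are not used as replicates.

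Mouse pluripotent cells pass through a series of states. Naive cells, held by inhibition of MEK and GSK3, express Nanog, Zfp42, Esrrb, Klf4 and Tfcp2l1 and resemble the epiblast of the blastocyst. When FGF and ERK signalling is released they lose these factors, take up the de novo DNA methyltransferases and Otx2, pass a formative stage and reach a primed state with Fgf5, which resembles the epiblast shortly before gastrulation. Pou5f1, the POU factor Oct4, is present throughout. Nodal and FGF signals maintain the primed state, whereas naive cells are kept by leukaemia inhibitory factor and Wnt pathway activity.

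Promoters of 4 genes are given because the results return to their transcripts: Nanog and Zfp42 belong to the naive list, Pim2 to the formative and primed list, and Fgf5 is the classic primed marker. Each window holds the 250 bases before the RefSeq start on GRCm38.p6, read 5′ to 3′ on the strand of the gene. Capitals mark the POU octamer ATGCAAAT, searched on both strands.
Nanog (chr6:122707239-122707488, plus strand): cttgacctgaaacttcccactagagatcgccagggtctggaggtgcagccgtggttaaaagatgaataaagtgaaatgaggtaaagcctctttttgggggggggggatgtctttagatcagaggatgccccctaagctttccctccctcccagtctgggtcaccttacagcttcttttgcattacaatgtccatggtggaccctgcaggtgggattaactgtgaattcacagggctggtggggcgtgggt
Zfp42 (chr8:43307010-43307259, minus strand): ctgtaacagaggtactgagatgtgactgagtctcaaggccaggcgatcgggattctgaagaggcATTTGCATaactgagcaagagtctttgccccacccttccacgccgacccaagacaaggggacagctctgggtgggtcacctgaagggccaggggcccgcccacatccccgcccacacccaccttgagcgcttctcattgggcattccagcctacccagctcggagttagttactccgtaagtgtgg
Fgf5 (chr5:98253934-98254183, plus strand): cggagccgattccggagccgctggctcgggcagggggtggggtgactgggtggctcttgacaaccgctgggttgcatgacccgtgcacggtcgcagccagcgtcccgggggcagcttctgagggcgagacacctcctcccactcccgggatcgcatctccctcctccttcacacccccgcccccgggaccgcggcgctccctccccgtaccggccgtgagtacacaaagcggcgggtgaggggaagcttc
Pim2 (chrX:7878056-7878305, plus strand): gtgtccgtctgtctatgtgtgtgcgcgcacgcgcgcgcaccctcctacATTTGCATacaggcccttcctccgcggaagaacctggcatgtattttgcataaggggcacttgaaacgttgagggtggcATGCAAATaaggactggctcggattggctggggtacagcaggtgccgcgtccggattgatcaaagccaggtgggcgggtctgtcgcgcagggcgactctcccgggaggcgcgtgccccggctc
The octamer is in the windows of Zfp42 and Pim2, 1 gene of each list, and its letters are not in those of Nanog and Fgf5. It is present in 1.6% of all 32851 promoter windows of this length. The TATA box letters TATAAA, present in 12.4% of the windows, are in none of the 4. The matches are descriptions of sequence only.

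The depth of the pluripotent-like cells ranged from 347002 to 3590515 counts with a median of 1322462, and was 1502220 in pool 1 and 802608 in pool 2 at the median. A median of 9657 genes was detected per cell, and the mitochondrial share was 14.6% at most. The 203 mESC cells with at least 100000 counts had a median of 1649199. Their mitochondrial share reached 70.0%. The mESC table holds estimated counts and the CPCC table whole counts, so culture and way of counting cannot be told apart in any comparison of both. No cells of the class held identical values.

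Pool 1 gave 56 of the pluripotent-like cells, which is 70.9% of its 79 cells (59.6% to 80.6%). Pool 2 gave 29 of 96, or 30.2% (21.3% to 40.4%). It also held all 20 cells above the limit of C1q and 36 of the 54 Acta2-Tagln-high cells. The summed level of Pou5f1 and Tdgf1, which chose the cells, had a median of 935 CPM. Just inside its limit lay cells with 117, 199 and 203 CPM and just outside cells with 98.6, 71.3 and 52.0 CPM. For Acta2 and Tagln the values nearest the limit were 1429 CPM inside and 2294 CPM outside, and for C1q, among cells that met the other limits, they were 57.9 and 202 CPM. Acta2 and Tagln reached 200 CPM or more in 13 of the cells, 3 in pool 1 and 10 in pool 2. Conversely, Pou5f1 and Tdgf1 passed 100 CPM in 4 of the 54 Acta2-Tagln-high cells and in 4 of the 20 C1q-high cells, which were left out although they lay within the range of the class for these genes. No doublet caller was run, and the part of cells captured together was not tested.

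**Figure D1:**
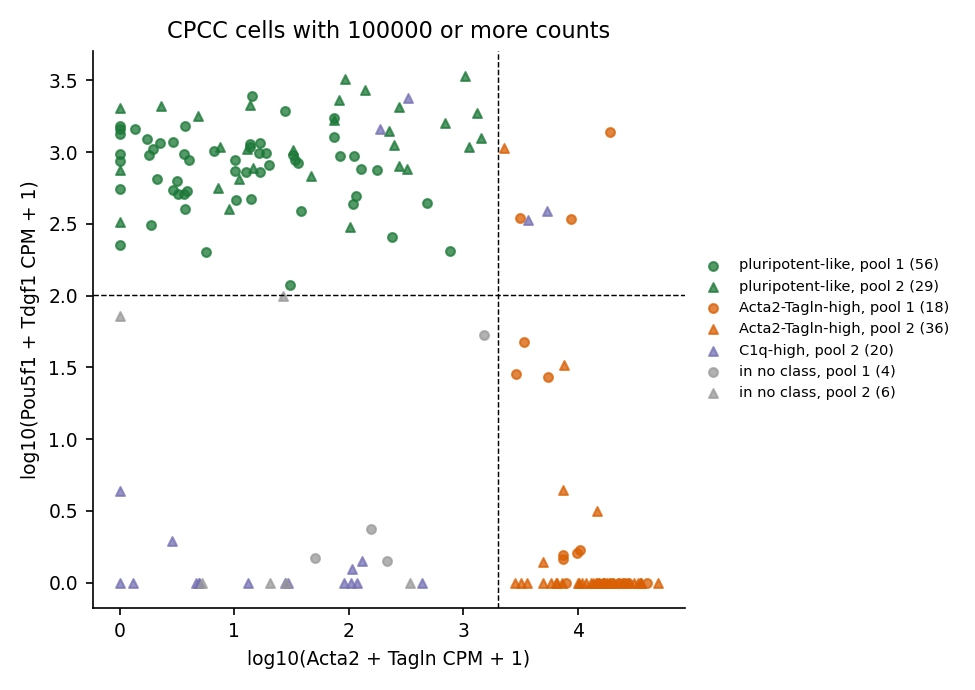
Summed CPM of Pou5f1 and Tdgf1 (y axis) against that of Acta2 and Tagln (x axis), both as log10(CPM + 1), for the CPCC cells with at least 100000 counts, with circles for pool 1, triangles for pool 2 and dashed lines at the limits of 100 and 2000 CPM. The 85 pluripotent-like cells fill the upper left field, and 4 Acta2-Tagln-high and 4 C1q-high cells also lie above the horizontal line.

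The given markers of the class follow, of which Pou5f1 and Tdgf1 chose the cells and are given as a description. Pou5f1, at chr17:35506018-35510772, ranged in pool 1 from 44.1 to 408 CPM with a median of 183, and in pool 2 from 0 to 244 with a median of 55.6. In mESC it ranged from 0 to 444 with a median of 144. Counts summed over cells gave 169 CPM (exact Poisson 95% interval 167 to 172) against 151 (150 to 152) in mESC. Pool 2 cells thus lay mostly below both other groups, although the ranges overlapped. Tdgf1, the Nodal co-receptor Cripto at chr9:110939603-110946158, was instead highest in pool 2. Its median was 638 CPM in pool 1 (0.40 to 2291), 1069 in pool 2 (154 to 3318) and 438 in mESC (0 to 1660).

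Dppa5a, a transcript of naive and early pluripotent cells at chr9:78367052-78368177, was detected in all 85 cells. It had a median of 5178 CPM in pool 1 (12.7 to 14769), 1104 in pool 2 (1.04 to 15611) and 7603 in mESC (213 to 20764). Pool 2 therefore held both cells near 1 CPM and cells above the median of mESC, and the 3 groups overlapped. Counts from processed copies of Dppa5a and Pou5f1 cannot be separated from those of the genes.

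Fgf5, a secreted FGF and the classic marker of the primed epiblast, at chr5:98254184-98277030, was the marker with the widest difference from mESC. In pool 1 it ranged from 0 to 122 CPM with a median of 0, and in pool 2 from 0 to 826 with a median of 107. It was detected, at 1 count or more, in 12 of 56 pool 1 cells (21.4%, 11.6% to 34.4%) and in 20 of 29 pool 2 cells (69.0%, 49.2% to 84.7%). In mESC it was found in 0.985% of 203 cells, and in the Acta2-Tagln-high cells in 7.41%. Thinning every cell to 340000 counts left the shares at 21.4%, 69.0% and 1.02%. Summed counts gave 44.3 CPM (43.1 to 45.5) against 0.239 (0.191 to 0.296), a log2 ratio of (CPM + 1) of 5.19. This scale understates the difference of a gene that is near 0 in one group.

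Lefty1, an antagonist and target of Nodal at chr1:180935022-180938400, was absent from many cells and very high in a few. Its median was 0 CPM in pool 1 (up to 3734), 226 in pool 2 (up to 2831) and 2.13 in mESC (up to 743). One cell held 19.2% of all its counts in the class. Detection was 46.4%, 75.9% and 62.6%, so pool 1 was above mESC in summed level, 138 CPM against 39.2, and below it in the share of cells. Reads shared with the near copy Lefty2 could be split by the counting.

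**Figure D2:**
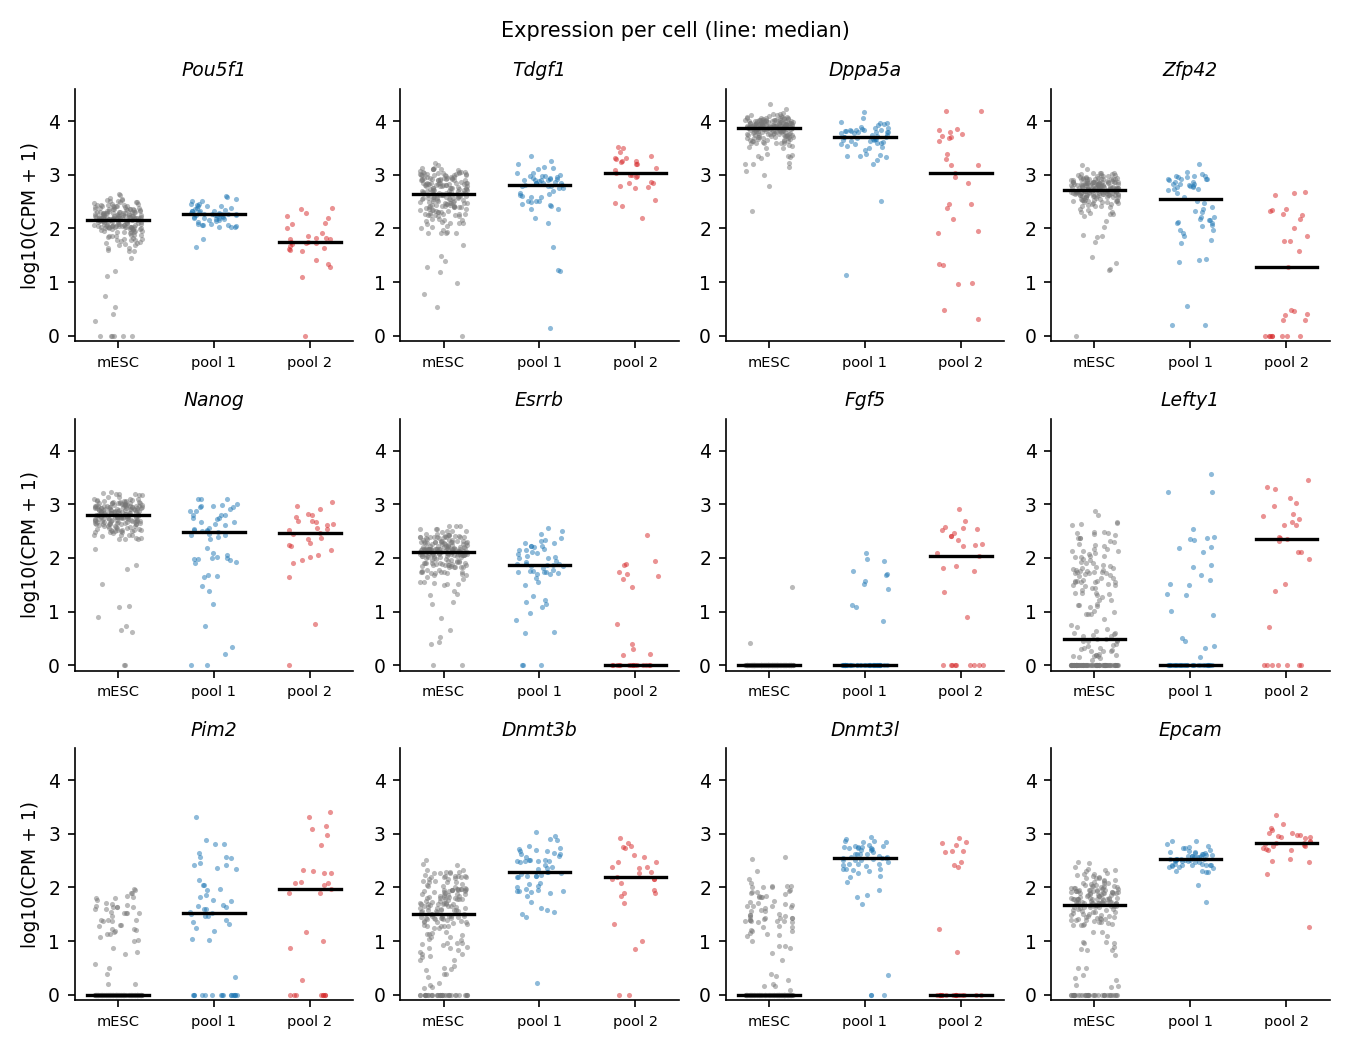
Expression per cell, as log10(CPM + 1), of 12 genes in mESC (203 cells), pool 1 (56) and pool 2 (29) of the pluripotent-like cells, with a line at the median. Epcam and Dnmt3b lie above mESC in both pools, Zfp42 and Esrrb spread downward in pool 2, and Fgf5 is near 0 in mESC.

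Genes were read against a background. Of 10779 genes compared between the pluripotent-like cells and mESC, 214 were 4-fold or more higher (1.99%) and 165 as much lower (1.53%). Compared genes had to be listed in both tables, to reach 5 CPM in 1 group and to be found in 25% of that group's cells. The median log2 ratio over all of them was 0.01. Between pool 2 and pool 1, 341 of 10588 genes were that much higher (3.22%) and 218 lower (2.06%), with a median of 0.04.

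Naive genes were mostly lower in the pluripotent-like cells than in mESC. Of the 16 genes listed, 15 were lower and 1 was higher, 3 of them lower by 4-fold or more against the background of 1.53%, and the median log2 ratio was -0.99. The single higher gene was Nr0b1, the orphan nuclear receptor Dax1, with 196 CPM against 120. The median was -0.89 for pool 1 and -2.61 for pool 2, where 12 of the 16 genes were lower by 4-fold or more, against 3.58% of all genes in that comparison.

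Zfp42, the zinc finger protein Rex1 whose promoter is shown above, had a median of 353 CPM in pool 1 (0.605 to 1605), 18.2 in pool 2 (0 to 479) and 530 in mESC (0 to 1545). Esrrb, an orphan nuclear receptor of the naive network, had medians of 73.5, 0 and 129 CPM. Pool 1 overlapped mESC broadly for both genes, while Esrrb had a count in only 48.3% of the pool 2 cells. Nanog, a homeobox factor also present in the early primed state, was nearly the same in both pools, with medians of 307 and 294 CPM against 629 in mESC.

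The naive genes furthest below mESC were low in both pools. Spic, an ETS factor associated with culture in MEK and GSK3 inhibitors, was detected in 8.93% of pool 1 and 3.45% of pool 2 cells against 88.2% of mESC cells, with 1.64 CPM against 89.7. Tfcp2l1, a self-renewal factor downstream of leukaemia inhibitory factor, was at 64.6 CPM in pool 1, 12.7 in pool 2 and 368 in mESC. Prdm14, which represses de novo methyltransferases and FGF signalling, was at 18.7, 11.5 and 77 CPM. So pool 1, close to mESC in Zfp42 and Klf2, was also low in these transcripts.

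Pool 1 and mESC were close for Klf2, with 199 CPM against 183 and detection in 98.2% and 97.5% of cells, while pool 2 was at 31.3 CPM and 44.8% of cells. Klf4, a Kruppel-like factor downstream of leukaemia inhibitory factor, was at 23.7, 2.71 and 56.8 CPM in pool 1, pool 2 and mESC. Tbx3, a T-box factor, was at 12.9, 1.12 and 40.0 CPM and was found in 6.90% of pool 2 cells. Tcl1, an activator of Akt signalling, was at 73.1, 12.8 and 215 CPM. The other naive genes, Klf5, Nr5a2, Dppa3, Fbxo15 and Tdh, had log2 ratios to mESC between -1.16 and -0.82, and of these Dppa3 was not lower in pool 2 (96.2 CPM) than in pool 1 (84.7 CPM), 1 cell of pool 2 reaching 1084 CPM.

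Formative and primed genes were higher than in mESC: 14 of 15 were higher and 1 lower, with 6 of the 12 that passed the filter at 4-fold or more against a background of 1.99% and a median log2 ratio of 1.35. The 6 were Pim2, Fgf15, Cldn6, Dnmt3b, Dnmt3a and Pou3f1. In pool 1 alone 10 of the 15 were higher and 5 lower than in mESC, and in pool 2 all 15 were higher. The gene that was lower over both pools was Tead2, a partner of the YAP coactivator, at 40.0 CPM against 53.0. The other genes of the list were Otx2, Sox3, Zic2, Zic5, Lef1, Tcf15, Cdh2 and Sfrp2. The sign for Cdh2, with 2.50 CPM against 2.25, turned when cells with 200 CPM or more of Acta2 and Tagln were left out.

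Pim2, a serine-threonine kinase, had a median of 33.0 CPM in pool 1 (0 to 2041), 91.8 in pool 2 (0 to 2520) and 0 in mESC (0 to 90.9). Only cells of the precursor cultures passed 100 CPM among these groups. Fgf15, an FGF that acts through secretion, was found in 39.3% of pool 1, 62.1% of pool 2 and 2.46% of mESC cells. Dnmt3b, a de novo DNA methyltransferase, had medians of 192, 155 and 31.4 CPM, and its levels in both pools lay above each of the mESC pools (290 and 235 CPM against 33.6 to 72.8). Dnmt3a was at 111 and 77 against 17.7 CPM. These methyltransferases thus did not follow the order of the pools that Fgf5 gave.

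Otx2, the homeobox factor that directs the exit from the naive state, was lower in pool 1 than in mESC (25.8 against 37.7 CPM) and higher in pool 2 (108 CPM, found in 72.4% of cells). Pou3f1, a POU factor of the epiblast and neural plate, was at 8.44 CPM in pool 1, 42.6 in pool 2 and 2.12 in mESC. Cldn6, a tight junction protein, was at 70.5, 238 and 7.34 CPM. Zic2 was found in few cells, 1 of which held 38.0% of its counts, and Sox3 stayed at 1.89 CPM in the class.

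General pluripotency genes differed from gene to gene. Of 10 genes, 7 were higher and 3 lower than in mESC, with a median log2 ratio of 0.61. Sox2, the partner of Oct4, was at 64.5 against 100 CPM and Sall4, a zinc finger factor, at 124 against 141. In pool 2 alone 5 were higher and 5 lower, with a median of 0.19, and the mean of this list had a rho with the score described below of -0.44 in pool 2 and 0.05 in pool 1. The 2 genes at 4-fold or more over both pools (background 1.99%) were Lin28a, an RNA-binding protein that blocks let-7 processing, with 24.3 against 1.53 CPM, and Epcam, an epithelial adhesion molecule. Epcam had a median of 333 CPM in pool 1 (52.3 to 749), 688 in pool 2 (17.4 to 2216) and 46.9 in mESC (0 to 297). Utf1, a chromatin factor of undifferentiated cells, was at 466 CPM in pool 1 and 461 in pool 2, against 183 in mESC.

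FGF and ERK pathway genes were mostly higher. Of 15 genes with values in both cultures, 12 were higher and 3 lower than in mESC, with a median log2 ratio of 1.65. Of the 13 that passed the filter, 5 were higher by 4-fold or more (background 1.99%). Besides Fgf5 these were 4 genes known to respond to ERK activity. Fgf8 had a log2 ratio of 3.36 but did not pass the filter. Dusp6, the phosphatase that inactivates ERK, had a median of 29.9 CPM in pool 1 (0 to 1468), 148 in pool 2 (0 to 672) and 0 in mESC (0 to 105). Etv4, an ETS factor, was found in 87.5% of pool 1, 44.8% of pool 2 and 1.48% of mESC cells. Egr1, an immediate early factor, was at 43.7 against 3.58 CPM, and Spred1, an inhibitor of the pathway, at 49.8 against 6.26 CPM. Spry4, another inhibitor, is not listed in mESC and was at 19.5 CPM in the class. The ligand Fgf4, made by naive cells too, was at 104 against 127 CPM.

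Fgf8, a ligand of the gastrulating embryo, was at 0.399 CPM in pool 1 and 50.8 in pool 2, where 48.3% of the cells had it. Of 9 primitive streak and early mesoderm genes listed, 2 passed the filter between the pools. Both, Fgf8 among them, were 4-fold or more higher in pool 2 (background 3.22%). Over both pools Eomes was at 9.27 CPM, T (Brachyury) at 1.46 CPM, of which 1 cell held 48.3%, and Mixl1 at 0.0254 CPM. The share of pool 2 cells with Fgf8 was therefore not matched by T, found in 13.8% of them.

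Nodal pathway genes lay on either side of mESC in the pools. Over 13 genes, 6 were higher and 7 lower than in mESC with a median log2 ratio of -0.08, which was -0.46 in pool 1 and 1.25 in pool 2. Between pools 11 were higher in pool 2, with a median of 0.94. Of the 12 that passed the filter, 4 were higher by 4-fold or more (background 3.22%). They included Lefty1, Acvr2b and Smad3, an intracellular mediator of the signal. Nodal itself was at 78.7 CPM in pool 1, 192 in pool 2 and 80.3 in mESC. Acvr2b, a type II receptor, was at 10.2, 73.3 and 16.6 CPM, 1 cell holding 35.8% of its counts. Pcsk6, a protease that matures Nodal, was the gene of the list 4-fold or more lower in pool 2.

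Wnt target genes were few and low: 4 of 6 were lower than in mESC, none by 4-fold or more, with a median log2 ratio of -1.03. Axin2 was at 0.983 against 3.70 CPM, and Sp5 at 1.36 against 6.02. Notum was found in 16.1% of pool 1 cells and in 0 of 29 pool 2 cells. Cdx1, a caudal homeobox factor, was at 12.6 CPM in pool 1, 1.01 in pool 2 and 18.3 in mESC, but between 7.13 and 41.6 among the mESC pools.

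**Figure D3:**
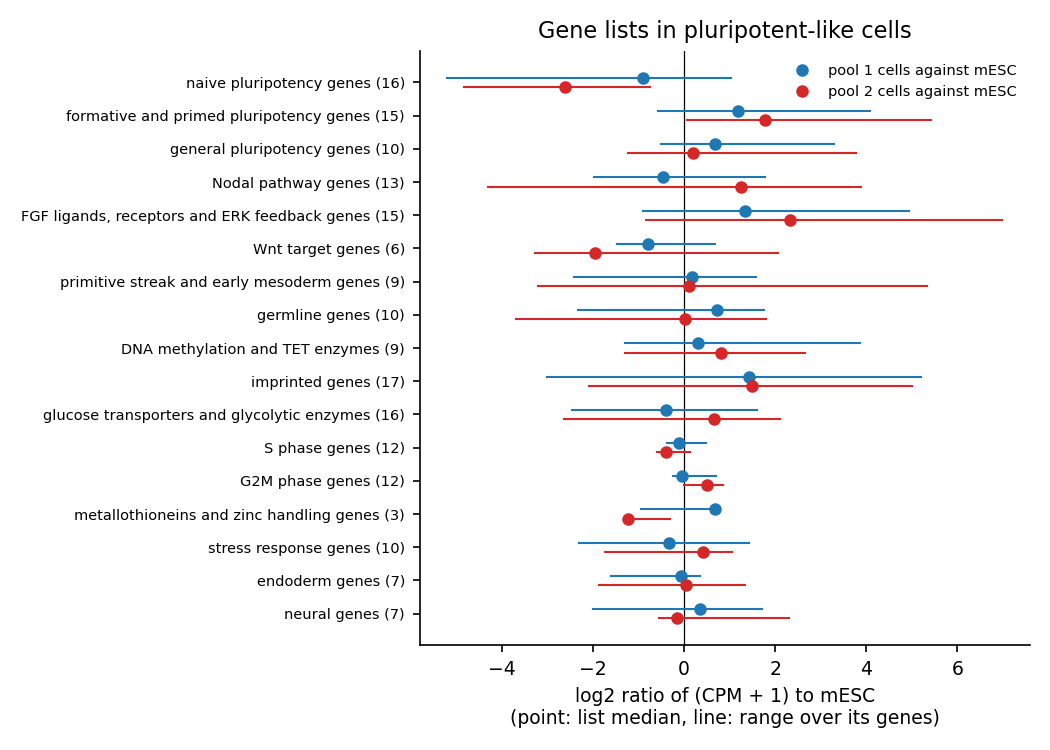
Median log2 ratio of (CPM + 1) to mESC over each gene list (points) with the range over its genes (lines), for pool 1 (blue) and pool 2 (red) of the pluripotent-like cells, with the number of genes listed in both tables. The naive list lies at -0.89 and -2.61, the formative and primed list at 1.18 and 1.79, and the Nodal list at -0.46 and 1.25.

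To follow the spread from cell to cell, a score was formed as the mean log2(CPM + 1) of the 15 formative and primed genes minus that of the 16 naive genes. It is a range and not a type. In mESC the score had a median of -4.87 and ranged from -6.38 to -1.17. In pool 1 it had a median of -2.34 (-4.92 to 3.01) and in pool 2 of 2.61 (-4.15 to 4.86). No mESC cell of 203 passed 0, which by the limit of 3 cells for a count of 0 allows a share of up to 1.48%, whereas 14 of 56 pool 1 cells and 19 of 29 pool 2 cells did. Of the 85 cells, 44 scored no higher than the highest mESC cell, 38 of them in pool 1, but that mESC cell was low in both lists, with a naive mean of 1.66 and a primed mean of 0.49. Only 1 of the 85 cells scored below the median of mESC.

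Pool 1 was spread continuously, with 8 cells within 0.5 of 0 and 2 cells above its widest gap. Pool 2 fell apart into 10 cells up to -0.21 and 19 cells from 1.68. Both means took part in the spread. The naive mean was 5.40 at the median of pool 1 and 1.69 in pool 2 against 6.93 in mESC. The primed mean was 3.10 and 3.75 against 1.90. Across cells the 2 means ran against each other with a Spearman's rho of -0.48 over 56 pool 1 cells and -0.56 over 29 pool 2 cells. Cells of a pool share a library pool, and rho is given as a description.

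**Figure D4:**
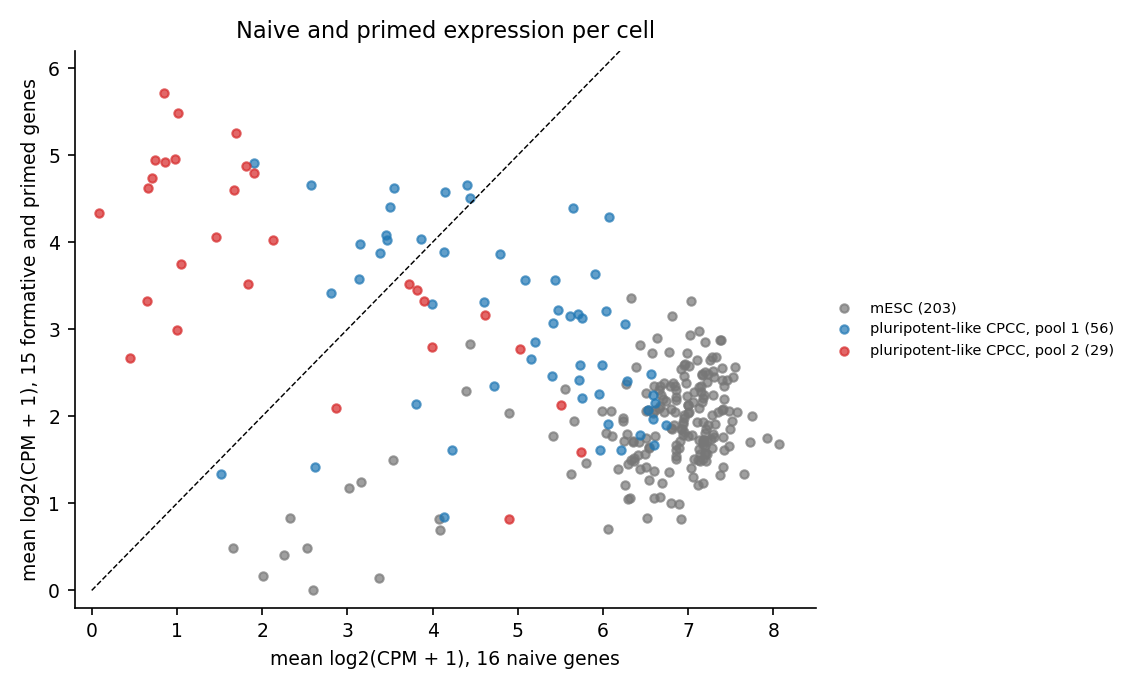
Mean log2(CPM + 1) of 16 naive genes (x axis) against that of 15 formative and primed genes (y axis) per cell, for mESC (grey), pool 1 (blue) and pool 2 (red) of the pluripotent-like cells, with a dashed line at equal means. All 203 mESC cells lie below the line, while 14 pool 1 and 19 pool 2 cells lie above it.

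Depth was compared with the score first: rho with counts per cell was -0.05 in pool 1 and 0.10 in pool 2, and with genes detected 0.07 and 0.21. With the summed CPM of Acta2 and Tagln it was 0.17 and 0.40, and 10 of the 13 cells with 200 CPM or more of these came from pool 2. Without these 13 cells the median log2 ratio of pool 2 to pool 1 was -1.85 in place of -2.19 for the naive list and 0.50 in place of 1.29 for the primed list, and the median score of the class was -1.72 in place of -1.21.

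Levels along the score were read within each pool. All cells were taken at 1 time, so the score gives no order in time. Among the 19 pool 1 cells with the lowest scores (-4.92 to -3.15), the median was 746 CPM for Zfp42, 638 for Nanog, 126 for Tfcp2l1 and 26.2 for Tbx3, and Fgf5 was found in 0 of them. In the 18 cells with the highest scores (-0.93 to 3.01) these were 111, 87.1, 0 and 0 CPM, and Fgf5 was found in 55.6% of the cells. Dnmt3b went from 83.4 to 435 CPM and Pim2 from 0 to 246. These genes, Fgf5 aside, form the score and differ along it by construction. Pou5f1, which chose the cells, was at 184 and 175 CPM. Utf1, used neither by the rule nor by the score, was at 473 and 587 in pool 1, and in pool 2 it went the other way, from 712 CPM in the 10 cells with the lowest scores to 453 and 295.

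In pool 2 the 10 cells with the lowest scores were near pool 1 for some genes and not for others. Dppa5a was at a median of 5629 CPM, Dnmt3l at 472 and Fgf5 at 0. Sox2 was at 116 CPM, against 44.7 to 70.5 in the 3 sets of pool 1. Mt1 was at 736 CPM and Slc2a1 at 339, against 1765 to 2275 and 91.5 to 111 there. The 10 middle cells (1.68 to 3.07) had medians of 258 CPM of Dppa5a, 0.300 of Sox2, 0 of Dnmt3l and 198 of Fgf5, and the 9 highest (3.57 to 4.86) had 152, 2.10, 0 and 254 CPM. Fgf8 had medians of 0, 46.7 and 51.7 CPM over the 3 sets, and Lefty1 of 0, 325 and 609. Pou5f1 was at 118, 38.4 and 55.6 CPM, while Tdgf1 was at 663, 1701 and 1001.

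**Figure D5:**
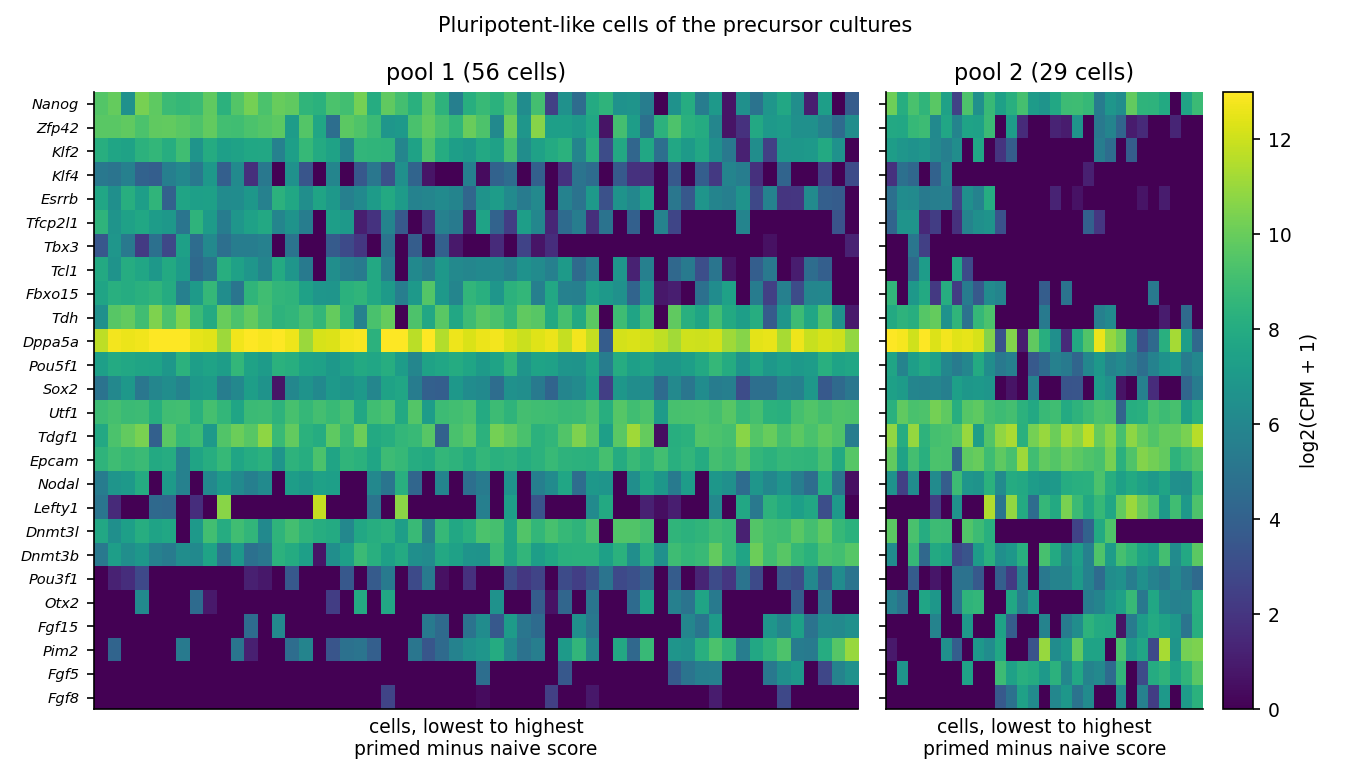
Log2(CPM + 1) of 26 genes (rows) in the pluripotent-like cells (columns) of pool 1 (56 cells, left) and pool 2 (29 cells, right), ordered within each pool from the lowest to the highest primed minus naive score. In pool 1 naive genes fade gradually to the right, and in pool 2 Dnmt3l was found in 80% of the 10 leftmost cells and in 30% and 11.1% of the next 10 and 9, and Fgf5 in 20%, 100% and 88.9%.

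Fgf5, by detection, and Zfp42, by a level of 100 CPM, were also read in the same cell. In pool 1, 44 cells had 100 CPM or more of Zfp42, and 7 of these had Fgf5 as well. In pool 2, 10 cells had this level of Zfp42 and 4 of them Fgf5, while 16 had Fgf5 without it. The median score of cells with Fgf5 was 0.52 in pool 1 and 2.91 in pool 2, against -2.62 and -1.19 in those without. Fgf5 and this level of Zfp42 thus occurred together in 11 of 85 cells. Lower counts of Zfp42 were found in all other pool 1 cells.

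Genes outside the lists that followed the score most closely in both pools were ranked by the smaller rho over 7306 genes, each of which had a count in 50% or more of the cells. Car4, a membrane-bound carbonic anhydrase, came first with rho of 0.61 in pool 1 and 0.55 in pool 2, followed by Cdk2ap1, a cell cycle regulator (0.61 and 0.55), and Tcfl5, a transcription factor (0.52 and 0.58). Nt5dc2, Tmem254b, Pdlim7, Mdk, H3f3b, Khdrbs1 and Fkbp1a completed the first 10. Among the 10 genes in the other direction were Ifitm2, an interferon-induced membrane protein (-0.68 and -0.59), and Mapt, the microtubule protein tau (-0.70 and -0.59). Idh2, the mitochondrial isocitrate dehydrogenase, had -0.55 and -0.66, and Fam25c, Jam2, Tsc22d1, Tfpi, Mylpf and Fabp3 were also among them. Only 24 genes reached 0.40 and 33 reached -0.40 in both pools.

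Fgf5, which was not part of the score, had rho of 0.60 and 0.57, and Dppa5a -0.47 and -0.63. Of 17 imprinted genes 11 had positive values in both pools, among them Snrpn (0.43 and 0.42), Mest (0.49 and 0.45) and Peg3 (0.69 and 0.22), and 1 gene, H19, had negative values in both. Of the 7306 genes above, 32.5% were positive in both pools, but those were chosen for detection in 50% of the cells and the imprinted genes were not, so the shares are not directly comparable. The mean of the Nodal list had rho of 0.19 in pool 1 and 0.65 in pool 2, and that of the metallothionein list -0.04 and -0.59.

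Among DNA methylation genes the de novo enzymes stood out. Of 9 genes, 5 were higher and 4 lower than in mESC, and the 3 with 4-fold or more (background 1.99%) were Dnmt3a, Dnmt3b and Dnmt3l. Dnmt3l, a cofactor of the de novo enzymes without catalytic activity, had a median of 350 CPM in pool 1 (0 to 869), 0 in pool 2 (0 to 833) and 0 in mESC (0 to 364). It was found in 94.6%, 41.4% and 37.4% of cells. Dnmt1 and Uhrf1, which maintain methylation, were at 72.9 against 110 CPM and 135 against 179 CPM, and the demethylase Tet1 at 288 against 249.

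Imprinted genes were mostly higher than in mESC, 13 of 17, with a median log2 ratio of 1.90. Of the 14 that passed the filter, 6 were higher by 4-fold or more (background 1.99%). Snrpn, a splicing protein, had a median of 847 CPM in pool 1 (221 to 1794), 1004 in pool 2 (264 to 2828) and 196 in mESC (0 to 589). Mest was at 390 against 84.9 CPM, Peg10 at 59.1 against 1.73, Sgce at 26.2 against 4.08 and Nnat at 9.83 against 0.0456. H19, a noncoding RNA, was at 34.4 against 0.123 CPM, but 1 cell held 39.6% of its counts and the Acta2-Tagln-high cells were at 618 CPM. Plagl1, a zinc finger factor, was the gene at 4-fold or more lower, at 20 against 139 CPM. The tables do not separate the parental alleles.

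Glucose and metallothionein genes differed between the pools, with overlapping ranges. Of 16 genes of glucose uptake and glycolysis, 13 were higher in pool 2 than in pool 1, 2 of them by 4-fold or more (background 3.22%), with a median log2 ratio of 0.90. Slc2a1, the transporter Glut1, had a median of 108 CPM in pool 1 (0 to 645) and 553 in pool 2 (52.2 to 1616). Ldha, lactate dehydrogenase A, was at 2125 and 4595 CPM, and Pgk1, phosphoglycerate kinase, at 241 and 1015 CPM. Against mESC the list had a median log2 ratio of -0.06, which was -0.39 in pool 1 and 0.65 in pool 2, with Hk1, a hexokinase, 4-fold or more lower. Mt1, a metal-binding metallothionein, ran the other way with medians of 1995 and 168 CPM against 1129 in mESC.

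Germline genes went in both directions: of 10 genes 6 were higher and 4 lower than in mESC. Ddx4 was at 35.7 against 15.8 CPM and Sycp3, a protein of meiotic chromosomes, at 32 against 14. Dazl, an RNA-binding protein of germ cells, was at 39.8 against 239 CPM. Cell cycle genes differed little from mESC, with a median log2 ratio of -0.12 over 12 S phase and 0.10 over 12 G2M phase genes, none of them at 4-fold. The median was 0.46 over 9 primitive streak and early mesoderm genes, 0.09 over 7 endoderm genes and 0.22 over 7 neural genes. Only 1, 1 and 2 of these passed the filter, so the medians rest mostly on genes that are low or found in few cells. It was -0.01 over 10 stress response genes, at -0.33 in pool 1 and 0.41 in pool 2. Genes of the totipotent-like 2-cell state were not listed in both tables.

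Lists of markers of other cell types were summed per cell. The summed level of 10 cardiac progenitor markers, of which 9 are listed, had a median of 0 CPM per cell and a maximum of 64.7, and none was found in most cells. Nkx2-5 was at 0.136 CPM and Mef2c at 0.00847 CPM. Of 12 cardiomyocyte markers the median of the sum per cell was 21.8 CPM, and Ttn, the giant sarcomere protein titin, was at 49.1 CPM in pool 1, 1.88 in pool 2 and 39.1 in mESC. The 10 fibroblast markers had a summed median of 39.3 CPM, against 72.4 in mESC over the 6 listed there. Vim, an intermediate filament of many cell types, was at 35.0 CPM and Col1a1, a collagen chain, at 0.178 CPM. Macrophage markers had a summed median of 2.78 CPM, at 0.888 in pool 1 and 6.30 in pool 2. Their list holds C1qa, C1qb and C1qc, which the rule limits, so a low sum follows in part from it. The 7 neural markers listed had a summed median of 69.7 CPM in pool 1, 24.0 in pool 2 and, over the 8 listed there, 34.4 in mESC, and reached 1039 CPM in 1 cell of the class. Tubb3, a neuronal tubulin, was at 59.6 CPM in the class, and Sox1 and Pax6, factors of neural progenitors, at 2.7 and 3.93 CPM.

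The 9 smooth muscle markers had a summed median of 66.5 CPM in pool 1 (1.98 to 1176), 130 in pool 2 (0.700 to 1692) and, over the 7 listed there, 2.10 in mESC (0 to 73.4). The 13948 CPM in the Acta2-Tagln-high cells follows from the rule. Tagln, an actin-binding protein that the rule limits, was at 81.5 against 1.21 CPM, and Myl9, a myosin light chain outside the rule, at 53.5 against 1.86. Acta2 is not listed in mESC. It was found in 74.1% of the pluripotent-like cells at 8.91 CPM. The part of transcripts carried over from neighbouring cells in these values was not tested.

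Genes chosen by the size of their ratio to mESC, with both pools outside the range of the mESC pools, were led by Car4, at 145 against 0.225 CPM. It was found in 50% of pool 1, 82.8% of pool 2 and 0.493% of mESC cells. Slc40a1, the iron exporter ferroportin, was at 52.8 against 0.142 CPM, and Trh, a neuropeptide precursor, at 170 against 2.85 CPM, 1 cell holding 29.1% of the latter. Krt8, a keratin of simple epithelia, was at 29.7 against 0.225 CPM and Irgm1, an interferon-induced GTPase, at 33.1 against 0.359. The others of the first 10 were Tagln, Fgf5, H19, Etv4 and Dusp6, described above.

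At the other end, Spic was followed by Crxos, a homeobox gene, with 1.69 against 61.1 CPM, Lrrc15, a leucine-rich repeat membrane protein, with 0.00847 against 21.7, and Xlr4c with 1.21 against 32.9. Nid1, the basement membrane protein nidogen, was at 10.2 against 166 CPM and in 99.0% of mESC cells. Lhfpl2 and Slit2, a guidance ligand, had no count in any of the 85 cells against 11.8 and 10.1 CPM. Trpm1, Epha4 and Fbp2 completed this set, with log2 ratios between -3.72 and -3.59. That these genes were low in both pools follows from how they were chosen.

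Between the pools, the largest ratios in favour of pool 2 were those of Ackr4, an atypical chemokine receptor (39.8 against 0.0664 CPM), Fgf8, Prss23, a serine protease (37.0 against 0.609), and Thbs1, thrombospondin 1 (41.2 against 1.12). For Ackr4, Prss23 and Thbs1 1 cell held 44.5% to 45.1% of the counts, and Prss23 and Thbs1 were at 999 and 1236 CPM in the Acta2-Tagln-high cells. Zfp608, Syt13, Parm1 and Pik3ip1 were the other 4. In favour of pool 1 were D1Pas1, an RNA helicase gene related to Ddx3x, with 46.4 CPM in pool 1 and no count in pool 2, Tgm1, a transglutaminase, with 62.3 against 0.578, and Aoah, a lipid hydrolase, with 30.9 against 0.253. Mcf2, Elobl, Ttn and Accsl were also in this set. In mESC D1Pas1 was detected in 37.4% and Tgm1 in 48.3% of cells.

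Set against the Acta2-Tagln-high cells, from which the rule itself separates them, the pluripotent-like cells had 611 of 11426 genes higher by 4-fold or more (5.35%) and 1150 lower (10.1%), which is given only as a description. Calcoco2, Arl14epl, Lefty1, D1Pas1 and Sycp3 had the largest ratios, and Bgn, Acta2, Ctla2a, Mgp and Fbln5 the smallest.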

How the data were processed

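Single cells of mESC, CPCC and cardiac bodies were captured on a Fluidigm C1 system, which makes full-length cDNA without molecular identifiers. Per the labels, the authors aligned reads with STAR 2.7 to mm10. The authors deposited whole counts per gene for CPCC and estimated counts, not all of them whole, for mESC and cardiac bodies, both made in Partek Flow. The counting model and any use of strand are not given in the sources used here. In the table of CPCC, rows without a gene name (208) and with a symbol turned into a date (23) were left out, and 2 columns that match no sample were not used. A gene not listed in a table was not compared. It counted as 0 only where the limits that define the pluripotent-like cells were applied to the other cultures.

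Within each group, counts of all cells were added up, scaled to CPM and compared as log2 ratios after adding a pseudocount of 1 CPM. With 1 sample per culture no test was run. Intervals are exact Poisson for levels and exact binomial for shares, at 95%, and since amplified reads may stem from 1 molecule they cover counting error only. A gene was called detected at 1 count. The score used the naive and primed lists, and thinning drew 340000 counts per cell, which left out 7 mESC cells. No doublet caller was run. Named genes were the markers, the genes of 24 lists, and the genes with the largest ratios or correlations under filters on detection, weighting and, against mESC, on both pools lying outside the mESC pools. Mitochondrial genes and unnamed gene models were left out. A few genes that these choices name are not reported here. The cells, lists and comparisons were chosen with earlier results of these data known. Alternatives changed the scaling (TMM of edgeR 4.0.16 and size factors of DESeq2 1.42.0, used for scaling only), pseudocount, weighting, filters and limits of the rule. The scripts were checked on simulated data. Python 3.11.15, pandas 2.3.3, scipy 1.17.1 and R 4.3.3 were used. Gene positions are from GENCODE M21 (GRCm38) and promoters from RefSeq (GRCm38.p6).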

Additional observations from a re-analysis of the deposited data

How the results depend on the processing

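No paired analysis was possible because each culture is 1 sample. The title of mESC says triplicate, but the labels number no replicates. Of 79 alternative values, 54 stayed within 0.1 on the log2 scale or within 1.5 times of a count, 24 moved further and 1 changed sign. The median log2 ratio of the naive list to mESC was -0.89 with pool 1 alone and -2.61 with pool 2 alone. Between pools that list was at -2.29 with DESeq2 size factors, -1.49 with a pseudocount of 10 CPM, -1.82 with every cell weighted alike and -1.85 with Acta2 and Tagln below 200 CPM. The primed list against mESC was at 2.07 and 0.44 with pseudocounts of 0.1 and 10 CPM, 1.58 with cells weighted alike, 1.99 with only genes at 5 CPM or more, 1.18 with pool 1 alone and 1.79 with pool 2 alone. Between pools it was at 1.19 with TMM, 1.18 with DESeq2 size factors, 0.53 with a pseudocount of 10 CPM and 0.50 with Acta2 and Tagln below 200 CPM. Genes 4-fold or more higher than in mESC numbered 44 with a pseudocount of 10 CPM and 470 with pool 2 alone, and those lower 25 and 385. The median score was -2.34 in pool 1 alone, 2.61 in pool 2 alone, where its sign turned, -0.61 and -1.74 with pseudocounts of 10 and 0.1 CPM, and -1.72 with Acta2 and Tagln below 200 CPM. A pseudocount changes the values by its construction. The cause of the other changes, those with 1 pool alone included, was not tested. Other limits of the rule gave 72 to 88 cells. Pools are not used as replicates, so differences between them have no error beyond counting.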

Other observations

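The limits that define the pluripotent-like cells were also applied to the other cultures. In mESC 195 of the 203 cells with at least 100000 counts met them. Acta2, C1qa, C1qb and C1qc are not listed in mESC and counted as 0 there. The limit of C1q could thus not be failed, and that of Acta2 and Tagln rested on Tagln alone. In the cardiac bodies 1 of 219 cells did, where the highest cell had 852 CPM of Pou5f1 and Tdgf1 together.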
